A study of Mus musculus with 10 samples.

Results

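The core circadian clock loop was examined as 10 genes fixed by name, and all 10 were found among the 41388 genes of the deposited count and RPKM tables. They are the activators Arntl, Clock and Npas2, the period genes Per1, Per2 and Per3, the cryptochromes Cry1 and Cry2, and the nuclear receptor genes Nr1d1 and Nr1d2. Liver RNA came from 10 mice aged 10 weeks. Of the F1 males, 3 came from dams of the obese Berlin Fat Mouse Inbred line (BFMI) and sires of the lean strain C57BL/6NCrl (B6N) and are named matBFMI. The reciprocal mating, with B6N dams and BFMI sires, gave the 3 males named patBFMI. All 6 F1 males received a high fat diet from day 21 to day 70. The inbred parental strains gave 1 male and 1 female of BFMI and 1 male and 1 female of B6N. The sample records put the inbred animals on a standard breeding diet, whereas the methods of the study put them on the high fat diet. The hour at which the livers were taken is not given in the sources used here. Sequencing depth was 51596405 to 56457087 assigned reads per library in matBFMI, 51080161 to 58955349 in patBFMI and 46988713 to 96023811 in the inbred mice. More genes had a count in patBFMI 1 (32421) than in any other F1 library (22095 to 26694). According to the column headers, matBFMI was sequenced on lane 6, patBFMI on lane 5, the BFMI male on lane 1 and the other inbred mice on lane 4. Cross and lane therefore cannot be told apart in the F1 males. The labels mark separate offspring but not litters. Per the study's methods, the 3 matBFMI males had 3 BFMI dams and the 3 patBFMI males had 3 B6N dams. The p-values measure the spread between these animals only.

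The clock loop is a transcriptional feedback circuit that runs in nearly every cell, liver cells included. The proteins of Arntl (also called Bmal1) and Clock, or its paralog Npas2, bind E-box sequences as a pair and switch on the Per, Cry and Nr1d genes. PER and CRY proteins then block the activators, and the REV-ERB receptors encoded by Nr1d1 and Nr1d2 repress Arntl, Clock and Npas2. The activator transcripts and most repressor transcripts therefore peak at different times of the day. In liver the loop drives daily rhythms of lipid, bile acid, heme and glucose metabolism.

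The promoter letters of the 6 members whose window carries a clock motif are shown with the match in capitals, because the activators and the repressors of the loop act through such sites. RefSeq (GRCm38.p6) gives a window of 250 bases before to 50 bases after a transcription start for 9 of the 10 members, in 13 windows of 300 bases. Per2 had no window in the set used here and was not searched. Both strands were searched for the E-box CACGTG (in 7.15% of 32851 such windows), the E′-box CACGTT, whose reverse strand reads AACGTG (4.68%), the D-boxes TTATGTAA (0.94%) and TTACGTAA (0.12%), and the REV-ERB and ROR elements TAGGTCA (2.61%) and TGGGTCA (3.98%). No searched motif overlapped another within a member's window, and a match is a description of letters only.
Per3 (chr4:151044804-151044882, minus strand): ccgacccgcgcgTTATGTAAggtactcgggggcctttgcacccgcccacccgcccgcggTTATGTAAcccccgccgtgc
Cry1 (chr10:85185097-85185145, minus strand): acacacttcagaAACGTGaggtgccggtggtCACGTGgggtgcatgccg
Per1 (chr11:69098768-69098803, plus strand): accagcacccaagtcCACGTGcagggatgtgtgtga
Nr1d1 (chr11:98775391-98775414, minus strand): acagatctcAACGTGccggctgct
Cry2 (chr2:92434218-92434247, minus strand): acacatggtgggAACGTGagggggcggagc
Arntl (chr7:113207530-113207559, plus strand): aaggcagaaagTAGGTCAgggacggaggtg
The Per3 window held 2 D-boxes, at positions -205 and -158 from its start, 47 bases apart. D-boxes bind the PAR bZIP factors of Dbp, Tef and Hlf and the repressor of Nfil3. The Cry1 window held an E′-box at -79 and an E-box at -60. Of the other repressor genes, Per1 had an E-box at -166, Cry2 an E′-box at -166 and Nr1d1 an E′-box at -28. The Arntl element began at position 31 after the start, inside an annotated Arntl exon. The windows of Clock, Npas2 and Nr1d2 held none of the searched letters.

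The members lie on chromosomes 7 (Arntl), 5 (Clock), 1 (Npas2 and Per2), 11 (Per1 and Nr1d1), 4 (Per3), 10 (Cry1), 2 (Cry2) and 14 (Nr1d2) of GRCm38. Nr1d1 shared 263 of its exon bases (8.55%) with Thra and Cry2 shared 295 (4.67%) with D930015M05Rik, both on the opposite strand. Whether counting used strand is not given in the sources used here, so these 2 counts may hold reads of the partner. Levels below are CPM, the reads of a gene scaled to a common library size, with the TMM adjustment of edgeR for library composition. Per kilobase of annotated exon and averaged over the 10 libraries, the level was highest for Nr1d2 (19.99 CPM per kb), then Nr1d1 (5.23), Clock (5.08), Cry2 (3.45), Per2 (2.79), Cry1 (2.17), Per3 (1.78), Arntl (1.75) and Per1 (1.12), and lowest for Npas2 (0.264). The order among Per3, Arntl and Cry1 differed between groups: in matBFMI Per3 was at 3.27 CPM per kb and Arntl at 0.825, while in patBFMI Per3 was at 1.36 and Arntl at 2.26. The range over libraries was widest for Npas2, whose highest library (the BFMI male) was 22.6-fold above its lowest (matBFMI 3), followed by Per3 (11.1-fold), Arntl (5.36-fold) and Per2 (4.26-fold). It was narrowest for Clock (1.85-fold) and Nr1d1 (1.91-fold).

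**Figure D1:**
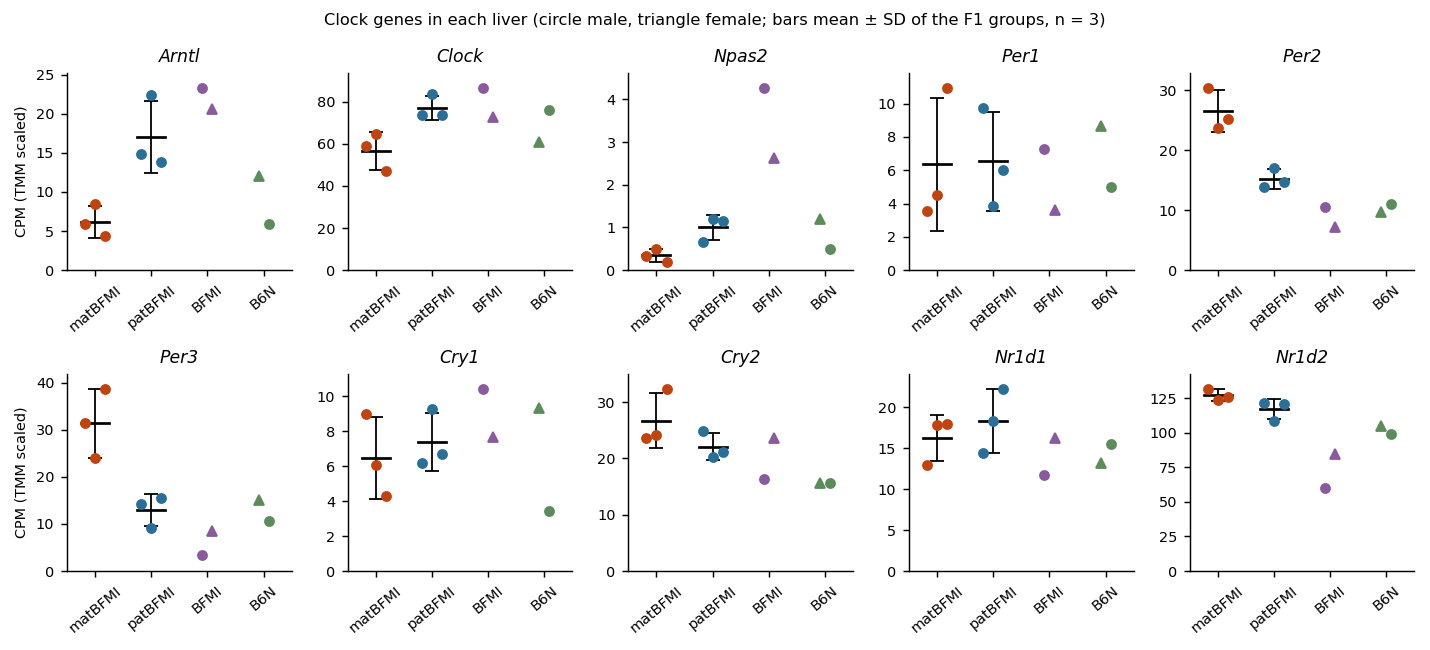
CPM (TMM scaled, linear axes from 0) of the 10 clock genes in each liver, by group. Points are animals (circles male, triangles female), and bars give the mean ± SD of each F1 group (n = 3). Arntl, Clock and Npas2 lie lower in all matBFMI males than in any patBFMI male, and Per2 and Per3 lie higher.

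The comparison of the reciprocal crosses asked whether the direction of the cross between an obese and a lean strain is seen in the liver transcripts of genetically similar F1 males. In CPM the 3 activators were lower in every matBFMI male than in any patBFMI male. Per2, Per3 and Nr1d2 were higher in every matBFMI male, though on the deposited RPKM the groups of Nr1d2 overlapped. None of the 10 members passed an adjusted p of 0.05 in the quasi-likelihood test of edgeR over 16797 genes, where 0.143% of all genes tested passed. The unadjusted p was under 0.05 for 2 members with higher and 3 with lower levels in matBFMI, against 5.14% and 4.7% of all genes. DESeq2 called 5 members, against 1.83% of all genes. Its adjusted p was 1.41e-07 for Arntl, 0.0427 for Clock, 0.0157 for Npas2, 8.93e-06 for Per2 and 9.42e-07 for Per3. The groups did not overlap in CPM for 6 members, against 15.3% of all genes, with 3 members higher (8.25% of all genes) and 3 lower (7.07%). The members were chosen with earlier results of these data known, so these counts are a description. With 3 animals against 3 an exact permutation test cannot go below p = 0.1.

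Of the activators, Arntl, the partner that every E-box complex of the loop needs, was at 5.87, 8.41 and 4.35 CPM in the matBFMI males (6.21 ± 2.05, SD, n = 3) and at 14.9, 22.4 and 13.8 CPM in the patBFMI males (17.0 ± 4.64, SD, n = 3). Its log2 fold change of matBFMI over patBFMI was -1.46 ± 0.25 (SE, 95% interval -2.03 to -0.89), with an adjusted p of 0.0848 in edgeR. The highest matBFMI male thus lay well below the lowest patBFMI male. Npas2, which can stand in for Clock, was at 0.337, 0.504 and 0.189 CPM in the matBFMI males and at 0.669, 1.20 and 1.15 CPM in the patBFMI males. These levels rest on 10 to 29 counts in matBFMI and 34 to 68 counts in patBFMI. The difference of Npas2 was -1.54 ± 0.38 (SE) on the log2 scale, with an adjusted p of 0.215 in edgeR and 0.0157 in DESeq2. Clock itself, the histone acetyltransferase partner of Arntl, was at 58.9, 64.5 and 46.9 CPM in the matBFMI males and at 73.8, 83.5 and 73.8 CPM in the patBFMI males. Its groups did not overlap either, yet its log2 fold change of -0.45 ± 0.13 (SE) was the smallest of the 3 activators (edgeR adjusted p = 0.269).

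Among the period genes, Per2, a target of E-boxes and of glucocorticoid signals, was at 30.4, 23.7 and 25.3 CPM in the matBFMI males (26.5 ± 3.502, SD, n = 3) and at 13.9, 17.1 and 14.7 CPM in the patBFMI males (15.2 ± 1.67, SD, n = 3). Its log2 fold change was 0.79 ± 0.12 (SE, 95% interval 0.52 to 1.05), and its edgeR adjusted p of 0.0544 was the lowest of the members. Without patBFMI 2 that p was 0.0464, and without each of the other 5 libraries it was 0.0797 to 0.204. It was 0.0227 when libraries were scaled by their size only, and 0.805 and 0.686 with limma on RPKM at the larger and the smaller pseudocount. Per3, whose window held the D-boxes shown above, was at 31.5, 24.0 and 38.7 CPM in the matBFMI males (31.4 ± 7.37, SD, n = 3). In the patBFMI males Per3 was at 14.3, 9.14 and 15.6 CPM (13.0 ± 3.42, SD, n = 3). All matBFMI males lay above all patBFMI males, with a log2 fold change of 1.25 ± 0.22 (SE) and an edgeR adjusted p of 0.0953. Per1, the period gene that responds most quickly to hormones and feeding, spanned 3.55 to 10.9 CPM in matBFMI and 3.84 to 9.74 CPM in patBFMI. The groups of Per1 overlapped almost completely, and the 95% interval of its log2 fold change ran from -1.07 to 0.93, which leaves wide room in either direction.

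Of the other repressors, Nr1d2 (REV-ERB beta) was the one whose groups did not overlap, at 132, 124 and 126 CPM in the matBFMI males and at 122, 109 and 121 CPM in the patBFMI males. The gap in CPM was small, with a log2 fold change of 0.10 ± 0.10 (SE, 95% interval -0.11 to 0.32). On the deposited RPKM the groups of Nr1d2 overlapped, at 24.17 to 25.16 in matBFMI and 20.43 to 24.87 in patBFMI. Its paralog Nr1d1 (REV-ERB alpha) spanned 13.0 to 18.04 CPM in matBFMI and 14.5 to 22.3 CPM in patBFMI, with a log2 fold change of -0.19 (95% interval -0.57 to 0.20). Cry1, the stronger repressor of the cryptochrome pair, spanned 4.31 to 8.99 CPM in matBFMI and 6.20 to 9.28 CPM in patBFMI (log2 fold change -0.20, 95% interval -0.77 to 0.37). Cry2 spanned 23.7 to 32.4 CPM in matBFMI and 20.3 to 24.8 CPM in patBFMI (log2 fold change 0.26, 95% interval -0.06 to 0.57). The groups of these 3 genes overlapped and their intervals held 0, so that no direction is given for them. Whether they differed from Per2 and Per3 was not tested.

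**Figure D2:**
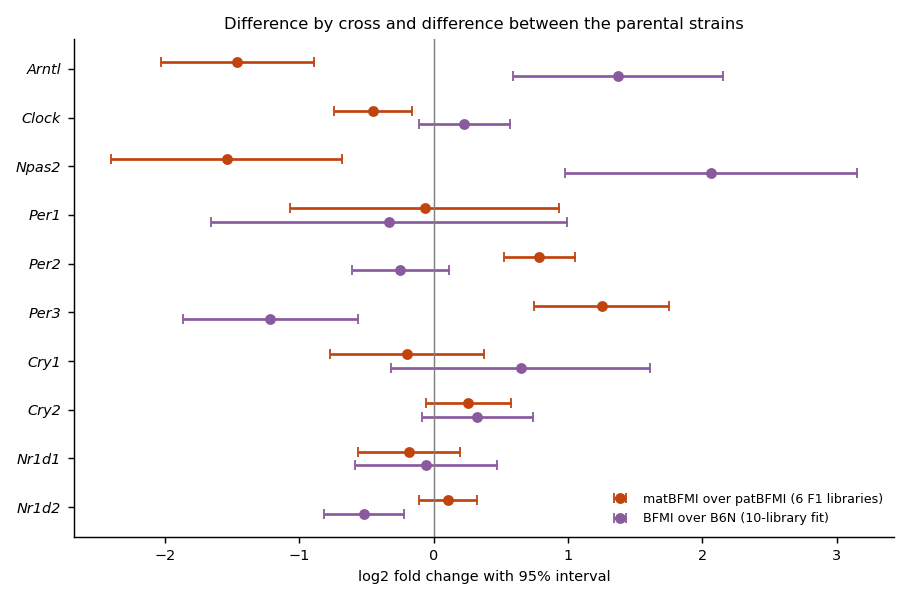
Log2 fold changes with 95% intervals of the 10 clock genes for matBFMI over patBFMI and for BFMI over B6N. The estimates of Arntl, Clock and Npas2 are negative by cross and positive by strain, and those of Per2, Per3 and Nr1d2 are positive by cross and negative by strain.

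BFMI and B6N livers were compared with a model of the 10 libraries that held a term for sex, to set the difference by cross beside that between the strains of the parents. Arntl and Npas2 rose and Per3 and Nr1d2 fell in BFMI relative to B6N, so that 4 of 10 members passed, against 6.67% of the 19974 genes tested (3.61% higher and 3.05% lower). Arntl was at 23.3 CPM in the BFMI male and 20.6 in the BFMI female, against 5.88 in the B6N male and 12.1 in the B6N female. Npas2 was at 4.27 CPM in the BFMI male and 2.62 in the BFMI female, against 0.499 in the B6N male and 1.20 in the B6N female. Both activators were higher in either BFMI animal than in either B6N animal, a separation of the strains in some direction that 43.8% of all genes showed, with log2 fold changes of 1.37 ± 0.35 (edgeR adjusted p = 0.0457) and 2.07 ± 0.49 (SE, edgeR adjusted p = 0.0321). Per3 was at 3.48 CPM in the BFMI male and 8.41 in the BFMI female, against 10.6 in the B6N male and 15.03 in the B6N female. Nr1d2 was at 59.8 CPM in the BFMI male and 84.7 in the BFMI female, against 99.3 in the B6N male and 105 in the B6N female. Both repressors were lower in either BFMI animal, with log2 fold changes of -1.22 ± 0.29 (edgeR adjusted p = 0.0346) and -0.52 ± 0.13 (SE, edgeR adjusted p = 0.0452).

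The calls between the strains depended on which libraries were in the fit. Without the BFMI male or without the B6N male, which leaves 1 animal of that strain, the calls were lost and the differences were smaller. The BFMI male was the only library of lane 1 and the deepest of the series. Without either male the strain difference is that of the females of lane 4, so that these fits are not separate checks. Without the BFMI male the log2 fold changes were 0.80 for Arntl, 1.16 for Npas2, -0.81 for Per3 and -0.28 for Nr1d2. Without the B6N male the same values were 0.77, 1.12, -0.84 and -0.31. Some calls were also lost without other libraries. The adjusted p of Arntl was 0.0557 without matBFMI 1 (log2 fold change 1.41) and 0.0545 without patBFMI 3 (1.37). That of Per3 was 0.0636 without matBFMI 1 (-1.18), 0.0674 without the BFMI female (-1.60) and 0.0616 without the B6N female (-1.61). The Nr1d2 call was also lost without matBFMI 1 (0.105), matBFMI 2 (0.119), matBFMI 3 (0.0921), patBFMI 1 (0.0577) or patBFMI 3 (0.0726), where its value was -0.49 to -0.52. Npas2 kept its call without each F1 library in turn. Its log2 fold change was 3.09 without the B6N or the BFMI female, where the strain difference is that of the males in both fits.

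The other 6 members did not pass between the strains. Clock was at 86.6 CPM in the BFMI male and 72.9 in the BFMI female, against 76.1 in the B6N male and 60.6 in the B6N female, higher in BFMI within each sex (log2 fold change 0.23, 95% interval -0.11 to 0.56). Per2 spanned 7.14 to 10.6 CPM in BFMI and 9.76 to 11.04 CPM in B6N (log2 fold change -0.25, 95% interval -0.61 to 0.11). The log2 fold changes of Per1 (-0.33), Cry1 (0.65), Cry2 (0.32) and Nr1d1 (-0.06) had 95% intervals that held 0. Cry1 was the member in which the B6N animals differed most from each other in fold, at 3.42 CPM in the male and 9.33 in the female, against 10.4 and 7.67 in the BFMI male and female.

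For 4 members the difference by cross differed from that by strain. The test was a contrast in the fit of all 10 libraries, the cross difference minus the strain difference, which 2.69% of all genes passed (1.35% with a positive and 1.34% with a negative value). Its values were -2.82 ± 0.46 for Arntl (edgeR adjusted p = 0.00833), -3.60 ± 0.66 for Npas2 (0.0167), 1.05 ± 0.21 for Per2 (0.0253) and 2.48 ± 0.37 (SE) for Per3 (0.00536). For Arntl, Npas2 and Per3 the cross and strain differences had opposite signs with intervals that did not hold 0. For Per2 the strains overlapped and the interval of the strain difference held 0, so that no side of the strains is given. Clock (-0.67, edgeR adjusted p = 0.133) and Nr1d2 (0.64, 0.0956) had the same signs without passing. Without the BFMI male the values were -2.25, -2.69, 1.22 and 2.08 for Arntl, Npas2, Per2 and Per3. Without the B6N male they were -2.22, -2.66, 1.25 and 2.11. Both fits take the strain difference from the same females, so that they are not separate checks. None of the members passed in either case. Per2 also missed the threshold without matBFMI 1 (0.0621), matBFMI 3 (0.0631), patBFMI 3 (0.0645), the BFMI female (0.158) or the B6N female (0.165), and the other 3 genes kept their calls without each of the other 8 libraries. The strain and cross comparisons use different animals, and diet, sex and lane differ between them as well.

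Relative to the inbred mice, the F1 males had more transcript of 3 repressors. Per2 (0.89 ± 0.14, edgeR adjusted p = 0.0147), Per3 (1.72 ± 0.26, 0.0135) and Nr1d2 (0.66 ± 0.11, SE, 0.0217) rose in the mean of the F1 groups over the mean of the inbred strains, so that 3 of 10 members passed against 2.05% of all genes (1.14% higher). All 6 F1 males lay above all 4 inbred mice in Per2, with 13.9 to 30.4 CPM in the F1 males and 7.14 to 11.04 CPM in the inbred mice. The same held for Nr1d2, with 109 to 132 CPM in the F1 males and 59.8 to 105 CPM in the inbred mice. On the deposited RPKM both genes overlapped. There patBFMI 3 at 2.284 lay below the BFMI male at 2.32 in Per2, and patBFMI 2 at 20.43 below the B6N female at 22.73 in Nr1d2. Per3 overlapped, since the B6N female at 15.03 CPM lay above 2 of the 3 patBFMI males. Without the BFMI male, which leaves 1 BFMI animal, these calls were lost. The log2 fold changes were then 1.058 for Per2, 1.325 for Per3 and 0.42 for Nr1d2. Without the B6N male Per2 lost its call (0.153), and Nr1d2 lost its call without matBFMI 1 (0.069), matBFMI 2 (0.057) or matBFMI 3 (0.0703). Diet per the sample records, lane and F1 status cannot be told apart in this comparison.

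Females and males could be compared within the inbred strains only, and none of the members passed in edgeR, against 0.556% of all genes. At an unadjusted p under 0.05 Per3 was higher in females (0.88 ± 0.29, SE, against 3.83% of all genes higher) and Per2 was lower (-0.37 ± 0.16, SE, against 3.96% lower), and neither DESeq2 (1.94% of all genes) nor limma called a member. In a fit of the 4 inbred libraries alone Per3 passed (0.87, edgeR adjusted p = 0.007), as did 2.16% of all genes. Per3 was at 8.41 and 15.03 CPM in the BFMI and B6N females, against 3.48 and 10.6 CPM in the males of the same strains. It was thus higher in the female within either strain, with 1 animal per strain and sex. In BFMI the male was on lane 1 and the female on lane 4, so that sex and lane cannot be told apart there. The Per3 value was 0.48 without the BFMI male and 0.51 without the BFMI female, where it is that of the B6N animals. Over all fits without 1 library it ran from 0.48 to 1.28.

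**Figure D3:**
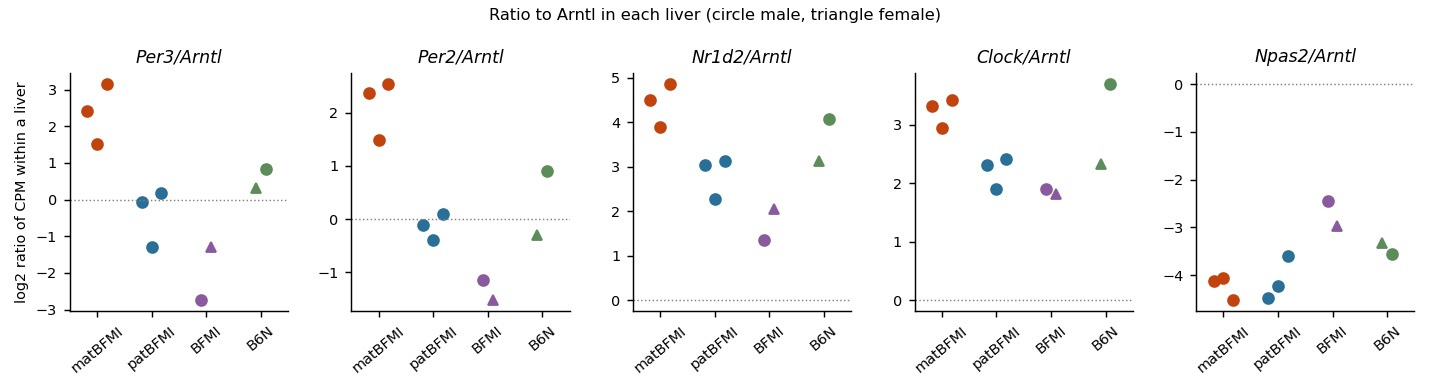
Log2 ratio of the CPM of Per3, Per2, Nr1d2, Clock and Npas2 to that of Arntl within each liver, by group (circles male, triangles female; the dotted line marks equal CPM). All matBFMI males lie above all patBFMI males in the first 4 panels, and Arntl, the shared denominator, separates these groups by itself. Both BFMI animals lie lowest in the Per2 and Nr1d2 panels, while in the Per3 panel the BFMI female is level with patBFMI 2.

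Activators and repressors were then set against each other animal by animal. Arntl itself did not overlap between the crosses, so a ratio to Arntl counts that difference again. The ratio of Per3 to Arntl CPM was 5.36, 2.85 and 8.90 in the matBFMI males and 0.963, 0.409 and 1.13 in the patBFMI males. It was 0.149 in the BFMI male and 0.409 in the BFMI female, against 1.80 in the B6N male and 1.25 in the B6N female. Over the 10 livers the balance of this period gene to its activator thus spanned from a Per3 level far below Arntl, in the BFMI male, to one far above it, in matBFMI 3. The ratio of Per2 to Arntl was 5.18, 2.82 and 5.81 in the matBFMI males and 0.93, 0.764 and 1.07 in the patBFMI males, and 0.454 and 0.347 in the BFMI male and female, against 1.88 and 0.809 in the B6N male and female. For Nr1d2, the direct repressor of Arntl, the ratio was 14.7 to 28.9 in matBFMI and 4.87 to 8.74 in patBFMI, and 2.57 to 4.12 in BFMI, against 8.71 to 16.9 in B6N. Among the activators, the ratio of Clock to Arntl was 7.67 to 10.8 in matBFMI and 3.74 to 5.34 in patBFMI, and that of Npas2 to Clock was 0.00404 to 0.00781 in matBFMI and 0.00907 to 0.0155 in patBFMI. Both thus separated the crosses, whereas Npas2 to Arntl overlapped, at 0.0435 to 0.0599 in matBFMI and 0.0449 to 0.0829 in patBFMI. In the inbred strains Npas2 to Arntl was 0.127 to 0.183 in BFMI, against 0.0849 to 0.0995 in B6N. Ratios to Arntl also separated the crosses for members given no direction above. That of Nr1d1 was 2.12 to 4.15 in matBFMI and 0.821 to 1.61 in patBFMI. Cry1 to Arntl was 0.725 to 1.53 and 0.416 to 0.484, and Cry2 to Arntl 2.87 to 7.44 and 0.907 to 1.67. Per1 to Arntl overlapped, at 0.539 to 2.52 in matBFMI and 0.172 to 0.654 in patBFMI.

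The order of the single F1 males was the same in Clock as in Arntl, and reversed in Per3. Arntl ran from patBFMI 2 at the top through patBFMI 1, patBFMI 3, matBFMI 2 and matBFMI 1 to matBFMI 3 at the bottom. Clock had the same order, as had 39 (0.232%) of the 16796 other genes tested, although patBFMI 1 and patBFMI 3 were level in Clock. Per3 had exactly the reverse, as had 52 genes (0.31%). Either order requires F1 groups that do not overlap, which was already so for Clock and Per3. Of all genes tested, 1188 were lower and 1385 higher in matBFMI without overlap, so these shares count the group difference again. Npas2 differed from the Arntl order only in patBFMI 1 and patBFMI 3, and the other 6 members had neither the order of Arntl nor its reverse. Within their own groups, the F1 males also deviated from the group mean of log2 CPM in opposite directions for Per3 and Arntl in 6 of 6 animals, a pattern found in 2.95% of all genes. The deviations of Clock had the sign of those of Arntl in 5 of 6 males (13.2% of all genes), and those of Npas2 in 4 of 6 (23.5%). The repressors were mixed: Per2, Cry1 and Nr1d1 also shared the sign of Arntl in 4 of 6 males, Per1 and Cry2 in 2 of 6 (20.5%) and Nr1d2 in 1 of 6 (11.3%). In matBFMI 3, the male with the least Arntl, Npas2 was 0.72 and Clock 0.26 below the group mean on the log2 scale, and Per3 was 0.33 and Per1 0.96 above it. In patBFMI 2, the F1 male with the most Arntl, Arntl was 0.43 and Npas2 0.30 above the mean of its group, and Per3 was 0.47 and Per1 0.66 below it. Deviations within 3 animals sum to 0 and are given as a description. Because the F1 groups do not overlap in Arntl, no pooled correlation over the 6 males is given.

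**Figure D4:**
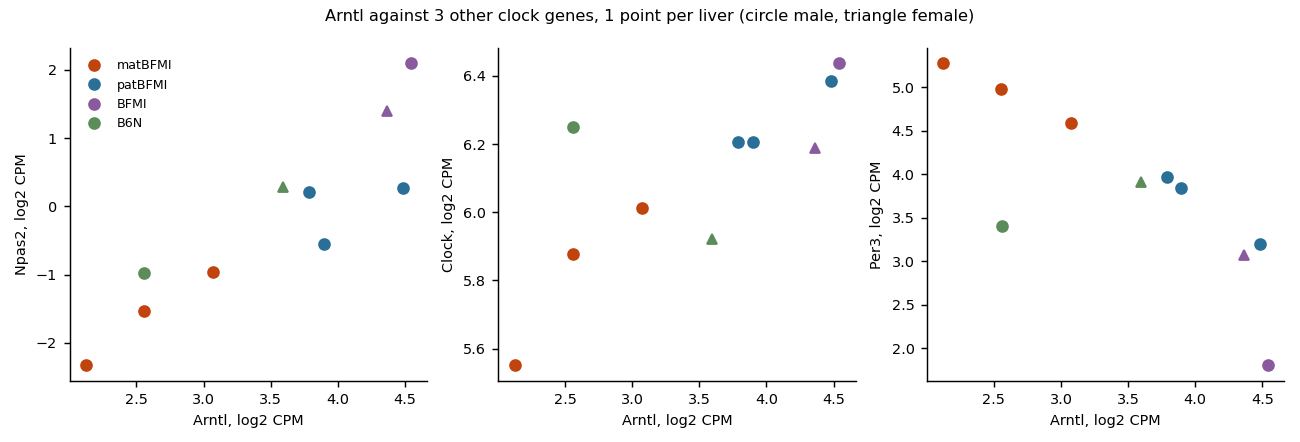
Log2 CPM of Npas2, Clock and Per3 against log2 CPM of Arntl, 1 point per liver in 10 livers, coloured by group (circles male, triangles female). Npas2 and Clock run upward with Arntl and Per3 runs downward, and the B6N male lies away from the F1 males in the Clock and Per3 panels.

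Over all 10 livers the values of Arntl ran without a wide gap from matBFMI and the B6N male through the B6N female to patBFMI and BFMI, although most groups did not overlap. Npas2 ran with Arntl (Pearson r = 0.90, Spearman rho = 0.89), and so did Clock (r = 0.77, rho = 0.77). Per3 ran against it (r = -0.79, rho = -0.86). In a permutation test of Pearson's r these had p = 0.00025, 0.00685 and 0.00498, adjusted over the 9 relations to 0.00225, 0.0205 and 0.0205. The test shuffles livers across the 4 groups, so that it covers differences between groups and lanes as well as between animals of a group. Taken as deviations from the group means, and as a description, r over the 10 livers was 0.86 for Npas2, 0.27 for Clock and -0.35 for Per3. The Spearman p-values of the same permutation test were 0.00121, 0.0123 and 0.00284, adjusted to 0.0109, 0.0369 and 0.0128. The relation of Cry1 was positive (r = 0.67, rho = 0.62, permutation p = 0.0348, adjusted 0.0783), and those of Per2 (r = -0.61, rho = -0.58) and Nr1d2 (r = -0.59, rho = -0.69) were negative, with adjusted permutation p of 0.0956 each for r. Cry2 (r = -0.35), Per1 (r = -0.15) and Nr1d1 (r = -0.09) had values nearer 0. After leaving out matBFMI 3 and matBFMI 1, the 2 libraries farthest from the median of Arntl, r was 0.81 for Npas2, 0.84 for Cry1, 0.51 for Clock and -0.60 for Per3. The B6N male (2.558 log2 CPM) was nearly as far as matBFMI 1 (2.556). No adjusted permutation p was then under 0.05 (0.072, 0.0719, 0.443 and 0.366). With 8 livers and a narrower range of Arntl, this cannot show whether the relations of Clock and Per3 rest on those males. Each lane held at most 3 libraries, which is too few for a value within lanes.

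Among the 15096 other genes with at least 10 counts in every library, those most like Arntl over the 10 livers were Dnmt3b (r = 0.97), Grk5 (0.93), Npas2 (0.90), C1s1 (0.90) and Sumo3 (0.89). Those most opposed were Capn1 (-0.96), Manba (-0.91), Slc20a1 (-0.91), Tha1 (-0.90) and Gm4899 (-0.89). With Arntl itself counted as the first, Npas2 stood at rank 4 and Clock at rank 56 from the top, and Per3 at rank 55 from the bottom. These correlations are a description, with no test.

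Of the genes that act on the loop, 27 of 28 clock regulators were tested in the F1 comparison, and none passed in edgeR. Of these, 16 had a positive and 11 a negative log2 fold change (median 0.05, against -0.01 over all genes), and in 3, all positive, the unadjusted p was under 0.05 (5.14% of all genes were higher at that p). Those were Usp2, a deubiquitinase of clock proteins (1.39 ± 0.38), Ciart, a repressor of the Arntl and Clock pair (1.72 ± 0.59), and Bhlhe41, which competes for E-boxes (0.66 ± 0.15, SE). Without matBFMI 3 the value of Ciart was 1.00, and without patBFMI 1 it was 2.55. The lists of regulators and of output genes were chosen with earlier results of these data known, so that their counts are a description. The log2 fold change of matBFMI over patBFMI was positive in 11 of 11 output genes (48.9% of all genes), with a median of 0.72, and the unadjusted p of 7 was under 0.05, against the same 5.14% of all genes. Only Wee1, the kinase that delays mitosis and is a direct target of Arntl, passed, at 5.49 ± 1.94 CPM in matBFMI and 1.41 ± 0.06 CPM in patBFMI (SD, n = 3; log2 fold change 1.94, edgeR adjusted p = 0.0452). It kept its call only without matBFMI 2; without the other libraries its adjusted p in edgeR was 0.0913 (matBFMI 1), 0.193 (matBFMI 3), 0.115 (patBFMI 1), 0.0695 (patBFMI 2) and 0.158 (patBFMI 3). Dbp, the D-box factor whose level often follows E-box activity, was at 31.5, 31.6 and 58.7 CPM in the matBFMI males and at 18.6, 14.2 and 21.9 CPM in the patBFMI males. Its groups did not overlap (log2 fold change 1.14 ± 0.25, SE, edgeR adjusted p = 0.169). The related D-box factor Tef had a log2 fold change of 0.53, the NAD synthesis gene Nampt 0.52, the heme synthesis gene Alas1 1.84, the cytochrome P450 reductase Por 0.82 and Cyp7a1, the rate-limiting enzyme of bile acid synthesis, 0.72 (0.40 without matBFMI 3).

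Cell markers were read beside these results, since in bulk liver fewer cells of a type and less RNA per cell cannot be told apart. All 12 Kupffer cell and macrophage markers had a negative log2 fold change in matBFMI over patBFMI, 8 of them at an unadjusted p under 0.05 (4.7% of all genes were lower at that p) and none at an adjusted one, and none was at 0 in every library. Their summed level was 237 to 269 CPM in matBFMI and 294 to 314 CPM in patBFMI, and 277 to 356 CPM in BFMI, against 453 to 483 CPM in B6N. All 4 lymphocyte markers tested also had a negative value by cross (median -0.462), 1 of them at an unadjusted p under 0.05 in edgeR. The 6 lymphocyte markers of the list summed to 11.2 to 14.5 CPM in matBFMI and 14.7 to 17.9 CPM in patBFMI. Endothelial, stellate, cholangiocyte and erythroid markers had values of both signs. The part of these cells in the differences of the clock genes was not tested. The 10 hepatocyte markers summed to 79500 to 88500 CPM in matBFMI and 74600 to 84800 CPM in patBFMI, and 3 of the 10 were lower at an unadjusted p under 0.05.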

How the data were processed

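Per the labels and the study's methods, the authors aligned trimmed paired reads to the mouse genome mm10, and after duplicate removal they counted the reads of each Ensembl gene (union mode). Picard 1.99, Bowtie2 2.2.6, TopHat2 2.10 and Trimmomatic 0.32 stand in the submitters' processing notes, whereas the methods name BWA and GATK. The authors deposited raw counts, and RPKM computed after quantile normalization. Each file also holds 3 columns that match no sample label and were left out.

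Counts were tested with edgeR 4.0.16 (quasi-likelihood, TMM, R 4.3.3): matBFMI against patBFMI in the 6 F1 libraries (at least 10 counts in at least 3), and all other comparisons in 1 fit of 10 libraries with group and sex (at least 10 counts in at least 2). P-values were adjusted by Benjamini-Hochberg over all genes, with a threshold of 0.05. The biological coefficient of variation was 15.9% and 17.7% in these fits. Correlations of log2 CPM (prior count 0.5) had permutation tests with 100000 resamples (scipy 1.17.1). Alternatives were other scalings, no filter, DESeq2 1.42.0, limma 3.58.1 on log2(RPKM + 1) and log2(RPKM + 0.1), offspring number as a replicate block, and fits without single libraries. The fits were tested on simulated data. Positions and exon lengths are from GENCODE M21 and promoters from RefSeq. Precision is given as SD over animals or SE of the fit. Named genes are all 10 members, the regulators and outputs with an unadjusted p under 0.05 between the F1 groups, and the 5 genes most and least correlated with Arntl. The members and lists were chosen with earlier results of these data known.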

Additional observations from a re-analysis of the deposited data

Results flagged for a closer look

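In 4 of 10 clock genes and 6 of the 10 named genes around the loop, against 2.69% of all genes, the difference by cross differed from the difference between the parental strains, by the contrast of the cross difference minus the strain difference in the fit of 10 libraries (log2 scale, edgeR adjusted p after Benjamini-Hochberg in brackets). The named genes around the loop were chosen for their difference by cross, which is part of this contrast, so their count is a description. The clock genes were Arntl at -2.82 (0.00833), Npas2 at -3.60 (0.0167), Per2 at 1.05 (0.0253) and Per3 at 2.48 (0.00536). The genes around the loop were Alas1 at 3.504 (0.00378), Por at 2.00 (0.01), Nampt at 0.89 (0.0226), Tef at 1.40 (0.0226), Wee1 at 1.96 (0.0303) and Usp2 at 2.71 (0.0402). Of these 6, Alas1 passed without each of the 10 libraries in turn (0.000712 to 0.046). Por missed the threshold without any 1 of the 4 inbred libraries (highest 0.0802), and Tef without matBFMI 1, matBFMI 3, the BFMI male or the B6N male (highest 0.17). Nampt passed only without matBFMI 2, patBFMI 1 or patBFMI 2 (highest 0.123 otherwise), and Wee1 (0.182) and Usp2 (0.202) passed only without matBFMI 2 or patBFMI 1.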

How the results depend on the processing

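The direction of each called member held under all alternatives run, but counts of calls did not. For matBFMI over patBFMI, 0 members were called in the main setting, 1 with scaling by library size only, 4 with no filter on low counts, 5 with DESeq2 and 0 to 1 without single libraries, and over all genes 24 were called in edgeR, against 307 with DESeq2 (1.83%), 696 with no filter (2.01%), 56 with scaling by library size (45 higher) and 2 with limma on RPKM. Of 3 same-numbered F1 pairs, 1 had a correlation of deviations over 0.1 (0.291, -0.0605 and 0.0946). In the same check 3 F1 libraries correlated best with their own number. With 3 pairs this cannot show whether the offspring number pairs the animals. With that number as a replicate block 3 members (Arntl, Per2 and Per3) and 175 genes (1.04%) were called. BFMI over B6N had 4 members called. With no filter (4.98% of all genes called) Nr1d2 lost its call (0.26) and Cry1 gained one (0.007). In the 4 inbred libraries alone (7.74% of all genes) Arntl, Npas2 and Per3 passed and Nr1d2 did not (edgeR adjusted p = 0.158). The count was 0 with limma on RPKM at either pseudocount and 0 to 4 without single libraries, and the contrast of cross minus strain had 4, 0 with limma at either pseudocount, 6 with DESeq2 (4.38% of all genes) and 0 to 4 without single libraries. F1 over inbred had 3, 5 with no filter (3.64% of all genes), 5 with DESeq2 (4.42%), 1 with limma at a pseudocount of 1 (1.32%), 0 at 0.1 (0.21%), and 0 to 3 without single libraries. For sex 1 member (Per3) was called with no filter (1.5% of all genes) and in the 4 inbred libraries alone (2.16%). Of the 9 relations with Arntl 3 passed, 5 on the RPKM scale and 0 without the 2 farthest libraries. The causes were not tested. On RPKM the median of all genes for F1 over inbred was -0.275 at a pseudocount of 1 and -0.674 at 0.1. Reversals touched only members not called in the main setting. By cross Per1 was 0.023 on the log2 scale with library size scaling, and -0.71 to 0.36 without single libraries, and Cry1 was -0.51 to 0.022. By strain Nr1d1 was 0.030 with no filter and -0.42 to 0.33 without single libraries, Per1 -1.26 to 0.54 and Cry1 -0.29 to 1.61. Npas2 had 10 to 68 counts in the F1 males.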
